A study of Mus musculus with 3 samples.

Results

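The 10 genes described here are the 4 mouse Notch receptors (Notch1, Notch2, Notch3 and Notch4), the 5 canonical ligands (Dll1, Dll3, Dll4, Jag1 and Jag2) and Rbpj, the DNA-binding factor through which the receptors act. Regions with different 5-hydroxymethylcytosine (5hmC) signal between 2 libraries were kept where the deposited annotation assigned them to one of these symbols, each position once. They came to 16 of 19817 listed regions and lay at 4 of the 10 genes, Notch2, Notch4, Jag1 and Dll3. Notch1, Notch3, Dll1, Dll4, Jag2 and Rbpj had no listed region of their own.

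The libraries came from Sv129 mouse embryonic stem cells (mESCs), 1 cell line, grown in serum-containing medium with folate at 0 mg/L (FA0, the folate-deficient culture) or 4 mg/L (FA4, the control culture). No genetic change or further treatment was named for either culture. Genomic DNA was sheared and enriched with an antibody against 5hmC (hMeDIP-seq), and each condition had 1 immunoprecipitated library. No comparison here has a replicate check, and every test compares these 2 libraries and not the 2 conditions, so folate, culture, immunoprecipitation and library cannot be told apart.

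Notch signalling passes between touching cells. A ligand of the Delta-like or Jagged type on one cell binds a Notch receptor on its neighbour, proteases then free the intracellular part of the receptor, and this fragment joins Rbpj and Mastermind proteins at target genes such as those of the Hes family. In the developing neural tube the pathway keeps progenitor cells from differentiating, and in mESC cultures Notch activity has been linked to neural commitment. 5hmC is made from methylated cytosine by TET enzymes and in mESCs is found mostly over gene bodies and distal regulatory DNA.

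No listed region of a Notch receptor or ligand overlapped the start of its gene. The promoter windows of the 4 genes with regions are printed to show what the start sites beside them hold in cytosines that can be modified. They run from 250 bases before to 50 bases after the start site, are given 5′ to 3′ on the strand of the gene from RefSeq (GRCm38.p6), and carry each CpG in capitals. Notch2 lies on the forward strand (chr3:98013288-98013587), Notch4 on the forward strand (chr17:34564045-34564344), Jag1 on the reverse strand (chr2:137116471-137116770) and Dll3 on the reverse strand (chr7:28301736-28302035).
Notch2: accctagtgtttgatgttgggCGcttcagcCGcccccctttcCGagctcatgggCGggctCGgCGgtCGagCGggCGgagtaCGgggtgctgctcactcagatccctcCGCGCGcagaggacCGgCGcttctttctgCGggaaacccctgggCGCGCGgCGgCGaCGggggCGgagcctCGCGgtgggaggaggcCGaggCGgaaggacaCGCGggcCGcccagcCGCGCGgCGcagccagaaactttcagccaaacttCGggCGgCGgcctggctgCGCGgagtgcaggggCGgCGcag
Notch4: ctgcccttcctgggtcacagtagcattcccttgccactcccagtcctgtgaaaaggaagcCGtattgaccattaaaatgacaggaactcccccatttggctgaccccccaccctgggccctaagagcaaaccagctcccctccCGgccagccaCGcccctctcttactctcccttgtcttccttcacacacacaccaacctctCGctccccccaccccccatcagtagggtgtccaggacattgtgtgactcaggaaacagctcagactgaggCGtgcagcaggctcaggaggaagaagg
Jag1: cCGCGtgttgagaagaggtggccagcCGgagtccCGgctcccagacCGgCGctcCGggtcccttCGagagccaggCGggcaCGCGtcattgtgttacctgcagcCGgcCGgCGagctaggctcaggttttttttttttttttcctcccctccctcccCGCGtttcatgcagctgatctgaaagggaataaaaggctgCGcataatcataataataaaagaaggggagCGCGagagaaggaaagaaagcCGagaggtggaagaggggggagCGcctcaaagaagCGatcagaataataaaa
Dll3: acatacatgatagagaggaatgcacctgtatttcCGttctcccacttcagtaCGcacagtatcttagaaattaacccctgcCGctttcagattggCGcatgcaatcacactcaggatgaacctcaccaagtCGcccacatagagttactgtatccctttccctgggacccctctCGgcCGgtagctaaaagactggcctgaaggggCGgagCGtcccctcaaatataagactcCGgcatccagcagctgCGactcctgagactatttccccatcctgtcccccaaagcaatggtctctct

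The Notch2 window held 41 CpGs at 73.0% GC, a number reached by 3.46% of the 32851 RefSeq promoter windows of mouse genes. Jag1 had 22 CpGs (reached by 23.1% of windows) and Dll3 had 11 (41.4%). Notch4 had 5, under the median of 7 over all windows. The window of Notch2 was therefore CpG-rich among mouse promoters and that of Notch4 was not. The letters TGGGAA, the core that Rbpj recognises, occurred on neither strand of these 4 windows and on either strand of 25.6% of all windows. Among the 6 genes without a listed region, CpG counts ran as high as 63 in the Jag2 window, a number reached by 0.0304% of windows.

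Over the 16 regions, 6 were higher in FA0 and 10 were lower in FA0, that is, higher in FA4. The FA0-higher share was 37.5% (95% Clopper-Pearson interval 15.2 to 64.6), against a background of 38.9% FA0-higher and 61.1% FA4-higher regions over the whole list. The split between the 2 libraries was thus close to that of the list as a whole. Having a listed region was no more than ordinary either, since 35.7% of 21900 RefSeq protein-coding genes had one, against 4 of these 10 genes. Where the genes stood apart from each other was in the direction at Notch2, with 5 regions, all FA0-higher, and at Jag1, with 9 regions of both directions. Notch4 and Dll3 had 1 FA4-higher region each, so a single direction was fixed there by the count. Of 9293 symbols with a listed region, 24.3% had both directions. That share includes symbols with 1 region, which cannot have both, so it is no like measure for Jag1.

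Values are given as reads recovered from the deposited normalized counts, in which 1 read was worth 1.15 in FA0 and 0.866 in FA4. Regions were in the list only where the deposited p was under 1e-04 and the fold at least 2. All folds below therefore come from regions already chosen for a difference and tend to be large. The exact p-values below are unadjusted and come from the same counts, so they are not free of this selection. Passing the exact test is thus no independent evidence of a difference. The test added here is a two-sided exact binomial test on the recovered reads, with 57.1% of reads falling in FA4 when the scaled levels are equal, and a region passed it at p of 1e-04. It is stricter than the deposited test for regions with 0 reads in one library, and more so where FA0 is lower. Such regions entered the list with as few as 10 FA0 reads or 13 FA4 reads. To pass the exact test, 11 FA0 reads or 17 FA4 reads were needed. Of the FA0-higher regions of the whole list 74.6% passed it, against 26.2% of the FA4-higher ones, and 5 of 6 and 4 of 10 did among the Notch genes. Among the passing regions 55.6% were FA0-higher, against 64.4% of those passing over the list. With FA0 values raised by 25% all 6 FA0-higher Notch regions and 0 FA4-higher ones passed. With FA4 values raised by 25% only 2 FA0-higher regions (Notch2 at 31.1 kb upstream and 45.2 kb downstream) but 5 FA4-higher ones did, so which regions pass turns on the scaling of the 2 libraries. Folds against a library with 0 reads are given as at least the observed reads of the other library over a floor of 3 reads, after scaling. They are not confidence limits: counting error in the higher library alone spans 1.73 to 5.56 for the smallest such fold, 3.25 at Dll3, and 3.05 to 7.72 for 5.00 at Jag1. Intervals and floors cover counting error only, since each condition had 1 immunoprecipitated library. The study's methods also name no molecular identifiers for the reads.

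**Figure D1:**
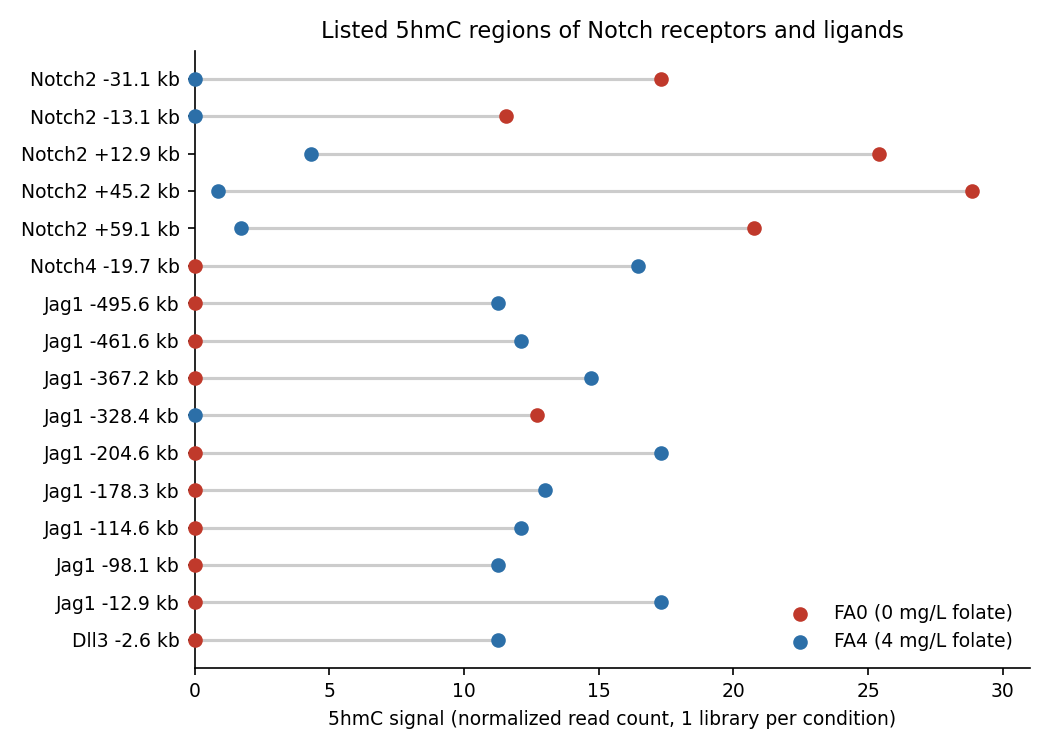
Normalized 5hmC read counts of the 16 listed regions in FA0 (red) and FA4 (blue), 1 library each, with each region named by its gene and its distance from the start site in kb (negative is upstream). The 5 Notch2 regions have red to the right, and the Notch4, Dll3 and 8 of the 9 Jag1 regions have blue to the right with red at 0.

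Notch2, a broadly expressed Notch receptor, carried 5 regions and all were higher in FA0. In the region centred 45.2 kb downstream of the start site (chr3:98058381-98059140, intron) FA0 had 25 reads (28.9 normalized) and FA4 had 1 read (0.87 normalized). This gave 33.3-fold more signal in FA0 (95% interval 5.46 to 1369, exact binomial p = 9.66e-09), the smallest p of the 16 regions. The width of the interval follows from the single FA4 read. In the exonic region at 59.1 kb (chr3:98072281-98073020) there were 18 FA0 reads and 2 FA4 reads, a 12.0-fold difference (2.87 to 107, exact p = 2.97e-05). In the intronic region at 12.9 kb (chr3:98026121-98026680) there were 22 FA0 reads and 5 FA4 reads, a 5.87-fold difference (2.17 to 19.8, exact p = 5.26e-05). These 3 regions lay in the gene body, and each had some FA4 signal.

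The other pair of Notch2 regions lay before the gene and had no FA4 read. The one centred 31.1 kb upstream (chr3:97982141-97982760, intergenic) had 15 FA0 reads against 0 FA4 reads, at least 6.67-fold higher in FA0 (exact p = 3.02e-06). The one 13.1 kb upstream (chr3:98000181-98000660) had 10 FA0 reads and 0 FA4 reads, at least 4.44-fold higher, and did not pass (exact p = 0.000209). That count is the smallest with which an FA0-only region entered the list. Across the 5 regions the FA0 library had 90 reads and the FA4 library 8.

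The Notch2 regions spanned 90.9 kb with 13.1 to 31.7 kb between neighbours, and no region assigned to another gene fell among them. On either side the list was empty for longer: the next listed region before them, at Mir378c, was 601 kb away and FA4-higher (0 FA0 reads and 15 FA4 reads), and the next after them, at Reg4, was 166 kb away and FA0-higher (16 FA0 reads and 1 FA4 read). Of 825 symbols with 5 or more listed regions, 2.67% had FA0-higher regions only, as Notch2 did. Notch2 was picked out here for its direction after its values were seen, so this share is a description.

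Notch4, a receptor found chiefly in endothelium, had 1 region. It lay 19.7 kb upstream of the start site (chr17:34543801-34545460) and had 0 FA0 reads against 19 FA4 reads (16.5 normalized), at least 4.75-fold lower in FA0 (exact p = 2.68e-05). The region overlapped the pseudogene Btnl7-ps and the non-coding gene Gm31560, so its assignment to Notch4 rests on distance. A further region lay inside the Notch4 gene, 18.5 kb after its start, but the deposited annotation assigned it to the neighbour Gpsm3 (chr17:34582381-34583180). It was not counted among the 16 and ran the other way, with 18 FA0 reads and 3 FA4 reads, 8.0-fold higher in FA0 (2.34 to 42.4, exact p = 7.45e-05). The direction read at Notch4 therefore turns on whether regions are taken by assigned symbol or by position in the gene.

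Jag1, a ligand of the Jagged type, had 9 regions, more than all the other genes together. Mutations of human JAG1 and NOTCH2 cause Alagille syndrome. All 9 Jag1 regions lay before the gene on its upstream side, between 12.9 and 496 kb from the start site, and none fell in its 35.1 kb gene body. Their assignment to Jag1 therefore rests on distance. At Jag1 8 regions were FA4-higher, each with 0 FA0 reads, and 1 was FA0-higher. Of 172 symbols with 9 or more listed regions, 48.3% had at least 8 in 9 of them FA4-higher, so the count at Jag1 was ordinary for a gene with this many.

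The Jag1 region nearest the gene (chr2:137128541-137130380, 1840 bp, 12.9 kb upstream) had 0 FA0 reads against 20 FA4 reads (17.3 normalized), at least 5.00-fold lower in FA0 (exact p = 1.50e-05). The same counts and p were found 205 kb upstream (chr2:137320581-137321580), where the region overlapped the non-coding gene Gm14055, as did the one 178 kb upstream. At 367 kb (chr2:137483261-137484260) there were 0 FA0 reads and 17 FA4 reads, at least 4.25-fold lower in FA0 (exact p = 8.70e-05). These 3 were the FA4-higher Jag1 regions that passed the exact test. The other 5, centred 98.1, 115, 178, 462 and 496 kb upstream, had 0 FA0 reads each and between 13 and 15 FA4 reads, and their exact p lay between 0.000290 and 0.000994.

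The FA0-higher Jag1 region (chr2:137444421-137445320, 328 kb upstream) had 11 FA0 reads (12.7 normalized) and 0 FA4 reads, at least 4.89-fold higher in FA0 (exact p = 8.96e-05). It lay between FA4-higher regions on both sides. The stretch from Jag1 to the next protein-coding gene, Btbd3, was 1140 kb long and held 11 listed regions, 9 assigned to Jag1 and 2 to Btbd3, of which 1 was FA0-higher and 10 were FA4-higher. That was 9.65 listed regions per Mb, against 7.35 per Mb over chromosome 2. The gaps between Jag1 regions ran from 15.4 to 123 kb, and 8 of the 9 stood in the intergenic class.

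**Figure D2:**
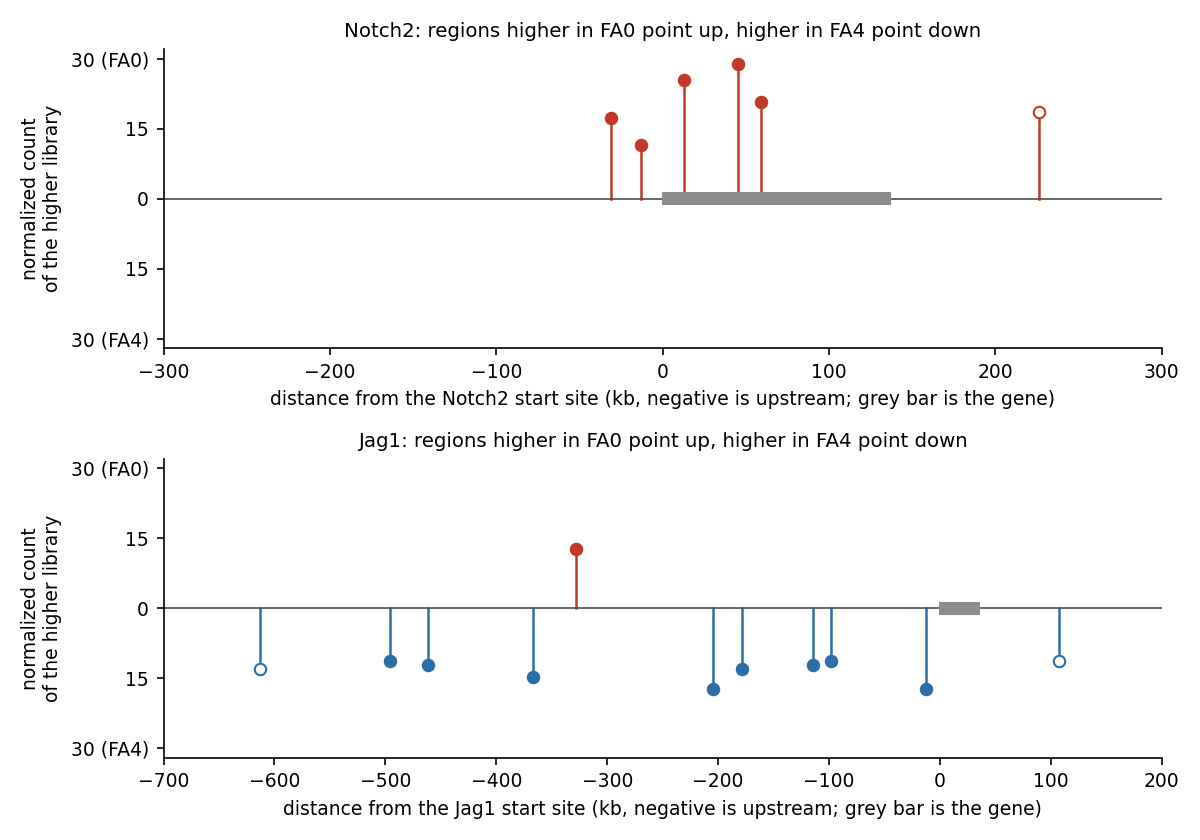
Listed regions around Notch2 (upper panel) and Jag1 (lower panel) by distance from the start site in kb, along the gene's own strand, with the height giving the normalized count of the library that was higher (up, red: FA0; down, blue: FA4). Filled points are regions assigned to the named gene and open points are regions assigned to another gene. The Notch2 points all point up and 3 stand on the grey gene body, whereas the Jag1 points stand upstream of the body and all but the one at 328 kb point down.

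Dll3, a divergent ligand that hampers Notch activity within the cell that makes it and is needed for segmentation of the trunk, had 1 region. It had 0 FA0 reads and 13 FA4 reads (11.3 normalized), at least 3.25-fold lower in FA0, and did not pass (exact p = 0.000994). At 2.65 kb before the start site (chr7:28304241-28304620) it was the region nearest to a start site among the 16, and at 380 bp the shortest. It lay between the Dll3 start and the neighbouring gene Timm50. This was also the smallest number of FA4 reads with which any region with 0 FA0 reads entered the list.

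The 6 genes without a listed region had their nearest neighbours at different distances. Jag2 had 1 listed region inside its gene, 11.2 kb after the start, which the deposited annotation gave to the microRNA gene Mir6941 as a promoter region (chr12:112918341-112918940). It had 13 FA0 reads and 1 FA4 read, 17.3-fold higher in FA0 (2.60 to 737), and did not pass (exact p = 0.000139). Dll4, a ligand of the vascular endothelium, had its nearest listed region 19.1 kb away at Vps18, with 13 FA0 reads and 1 FA4 read. The nearest to Rbpj was 46.4 kb away at Cckar and was lower in FA0, with 4 FA0 reads and 30 FA4 reads. Within Notch1, Notch3, Dll1, Dll4 and Rbpj the list holds no region, so neither the presence of 5hmC nor its equality between FA0 and FA4 can be read from it there.

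Notch1, the receptor most studied in neural progenitors, had its nearest listed region 47.5 kb away at Egfl7, with 19 FA0 reads and 3 FA4 reads. For Notch3, the receptor of vascular smooth muscle, it was 49.6 kb away at Pdxk-ps, with 26 FA0 reads and 7 FA4 reads. For Dll1, a ligand of the neural tube and presomitic mesoderm, it was 113 kb away at Gm5091, with 20 FA0 reads and 1 FA4 read. The nearest listed region was FA0-higher for 5 of the 6 genes, Rbpj being the exception, where 38.9% of all listed regions were, 43.3% on chromosome 2 (Notch1, Dll4) and 48.7% on chromosome 17 (Notch3, Dll1). With 6 genes this is a description only.

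Within 1 Mb on each side of the start sites, listed regions of any gene differed in direction from locus to locus. Around Dll3 there were 24 FA0-higher and 7 FA4-higher regions, so the single FA4-higher Dll3 region stood in a stretch where the other direction was more frequent. Around Jag1 there were 2 FA0-higher and 16 FA4-higher regions, and around Notch2 10 and 6. These counts include the genes' own regions. Without them there were 5 FA0-higher and 6 FA4-higher regions around Notch2, so the surplus of FA0-higher ones there was that of Notch2 itself, and 1 and 8 around Jag1. Notch1 (22 FA0-higher, 6 FA4-higher), Jag2 (20 and 6), Dll4 (17 and 10) and Notch3 (12 and 6) lay in stretches with more FA0-higher regions, as did Notch4 (20 and 14). Dll1 (5 FA0-higher, 12 FA4-higher) and Rbpj (2 and 7) did not.

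**Figure D3:**
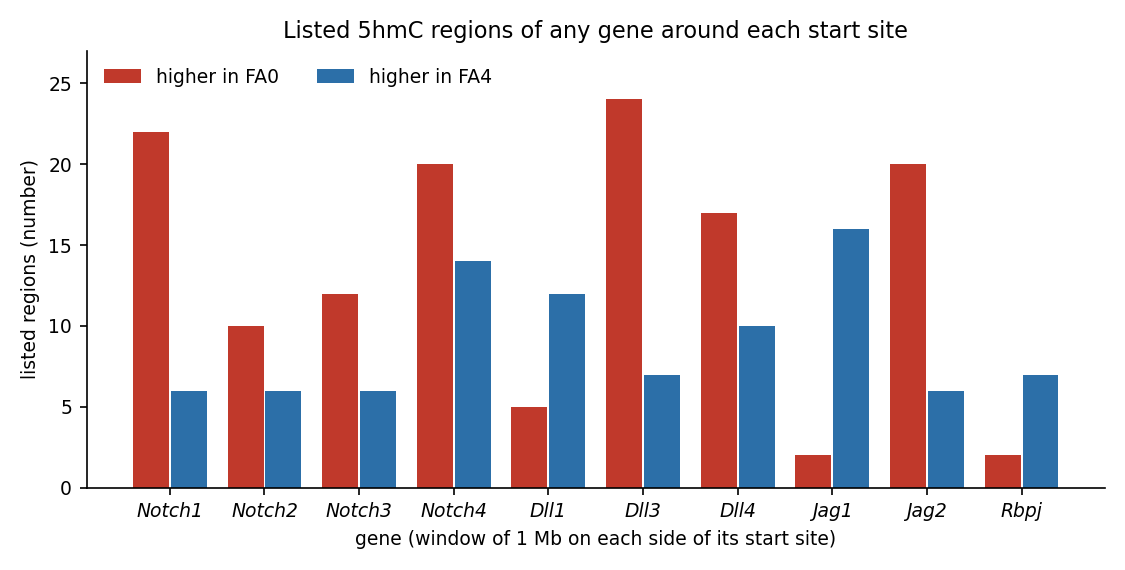
Number of listed regions, of any gene, within 1 Mb on each side of the start site of each Notch gene, higher in FA0 (red) or higher in FA4 (blue). FA0-higher regions outnumber FA4-higher ones at Notch1, Notch2, Notch3, Notch4, Dll3, Dll4 and Jag2, and the reverse is seen at Dll1, Jag1 and Rbpj, with the genes' own regions included.

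By the deposited classes none of the 16 regions was a promoter region, a class that held 4.92% of the whole list. There were 4 upstream regions (1 FA0-higher, 3 FA4-higher), 1 exonic and 2 intronic regions (all FA0-higher and all of Notch2), and 9 intergenic regions (2 FA0-higher, 7 FA4-higher). Over the whole list the FA0-higher share was 61.0% in promoters, 62.5% in exons, 46.8% upstream, 43.4% in introns and 30.8% between genes. The exonic and intergenic Notch regions leaned as their classes did over the list, whereas both intronic ones were FA0-higher in a class with more FA4-higher regions, and the part of the class in the direction at each locus was not tested.

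The FA0-higher regions of the Notch genes were shorter, with a median of 680 bp (480 to 900), than the FA4-higher ones, with a median of 1090 bp (380 to 1840). The same held over the list, with medians of 760 bp and 1080 bp. Per kb of region, the library with the higher signal had a median of 24.3 reads in FA0-higher and 13.0 reads in FA4-higher Notch regions, against 21.9 and 15.0 over the list. All 10 FA4-higher Notch regions had 0 FA0 reads, where 81.1% of FA4-higher regions of the list did. Of the 6 FA0-higher ones 3 had 0 FA4 reads, where 32.4% of FA0-higher regions did. The counts behind each region were low, at most 25 reads in one library, and a library with 0 reads limits a level only to under 3 reads.

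The other genes of the pathway were taken from a list of 62 genes in 8 roles. Of these, 29 had a listed region, where 35.7% of RefSeq protein-coding genes did, 7 with FA0-higher regions only, 13 with FA4-higher regions only and 9 with both, where 24.3% of symbols with a region had both. Their 56 regions divided into 25 FA0-higher and 31 FA4-higher (44.6% FA0-higher, 31.3 to 58.5, against 38.9% over the list), of which 18 and 7 passed the exact test, where 74.6% and 26.2% did over the list. Passing was thus more frequent among FA0-higher regions here as over the whole list.

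Among 9 target genes, 2 had regions. Hes5, a transcriptional repressor that holds neural progenitors undifferentiated, had a promoter region centred 0.922 kb before its start (chr4:154959301-154960700) with 29 FA0 reads and 10 FA4 reads, 3.87-fold higher in FA0 (1.83 to 8.89, exact p = 0.000122, not passing). Hes1, its relative, had regions of both directions. The one 43.2 kb downstream of its start had 16 FA0 reads and 0 FA4 reads, at least 7.11-fold higher in FA0 (exact p = 1.30e-06). The one 14.0 kb downstream had 5 FA0 reads and 33 FA4 reads, a ratio of FA0 to FA4 of 0.202 (0.0616 to 0.521, exact p = 0.000114).

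Glycosyltransferases of the Fringe type and others, which modify the receptor and alter which ligands it answers, had regions at 3 of 5 genes, and none passed. Rfng had 16 FA0 reads and 2 FA4 reads at its FA0-higher region with the smallest deposited p, and Mfng had 0 FA0 reads and 14 FA4 reads. The proteases that cut the receptor had regions at 3 of 10 genes. Psenen, a subunit of gamma-secretase, had a promoter region with 10 FA0 reads and 0 FA4 reads (at least 4.44-fold higher in FA0, exact p = 0.000209), which overlapped the adjoining gene U2af1l4. Aph1b, another subunit, had 0 FA0 reads and 17 FA4 reads (at least 4.25-fold lower in FA0, exact p = 8.70e-05). Mice also carry a close copy, Aph1c, so this count is uncertain, and whether reads were shared between the copies was not tested.

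Neurl1a, a ubiquitin ligase that acts on ligands, was the 1 of 4 ligand regulators with regions. It had 30 FA0 reads and 8 FA4 reads at an intronic region, 5.00-fold higher in FA0 (2.24 to 12.6, exact p = 8.56e-06), and 0 FA0 reads and 15 FA4 reads at another (exact p = 0.000290). Regulators of the receptor had regions at 3 of 9 genes. Numbl, a relative of the Notch inhibitor Numb, had 29 FA0 reads and 8 FA4 reads, 4.83-fold higher in FA0 (2.16 to 12.2, exact p = 1.53e-05). Fbxw7, which marks the freed Notch fragment for degradation, had 0 FA0 reads and 15 FA4 reads at the stronger of its regions (exact p = 0.000290).

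Coactivators had regions at 7 of 8 genes, 7 FA0-higher and 8 FA4-higher. The Mastermind genes, whose proteins complete the complex of Notch and Rbpj on DNA, held the smallest p of both directions. Maml3 had 15 FA0 reads and 0 FA4 reads, at least 6.67-fold higher in FA0 (exact p = 3.02e-06), at one of its 2 FA0-higher regions. It also had 2 FA4-higher regions, of which 1 passed, with 0 FA0 reads and 17 FA4 reads (exact p = 8.70e-05). Maml2 had 1 region, with 2 FA0 reads and 41 FA4 reads, a ratio of 0.0650 (0.00762 to 0.250, exact p = 2.50e-08). This Maml2 region had the smallest exact p among the 56.

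Corepressors, which keep Rbpj targets silent without Notch, had regions at 7 of 12 genes, 8 FA0-higher and 10 FA4-higher. Ctbp2 had 32 FA0 reads and 6 FA4 reads, 7.11-fold higher in FA0 (2.93 to 20.8, exact p = 2.03e-07), and 0 FA0 reads and 18 FA4 reads at another region (exact p = 4.81e-05). Hdac2, a histone deacetylase, had a region with the same 0 FA0 reads and 18 FA4 reads, and an FA0-higher one that passed, with 11 FA0 reads and 0 FA4 reads (exact p = 8.96e-05). Cir1, which bridges Rbpj to deacetylases, had a promoter region with 0 FA0 reads and 13 FA4 reads, at least 3.25-fold lower in FA0 (exact p = 0.000994, not passing).

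Atypical ligands had regions at 3 of 5 genes, 2 FA0-higher and 5 FA4-higher. Cntn1, a neuronal adhesion protein, had 16 FA0 reads and 0 FA4 reads in an intron (at least 7.11-fold higher in FA0, exact p = 1.30e-06), and 0 FA0 reads and 13 FA4 reads in another intronic region, which did not pass (exact p = 0.000994). Its relative Cntn6 had 0 FA0 reads and 21 FA4 reads (at least 5.25-fold lower in FA0, exact p = 1.54e-05). Dlk2, a membrane protein without the domain that activates Notch, had a promoter region with 0 FA0 reads and 13 FA4 reads (exact p = 0.000994, not passing), and a passing FA0-higher region with 11 FA0 reads and 0 FA4 reads (exact p = 8.96e-05).

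**Figure D4:**
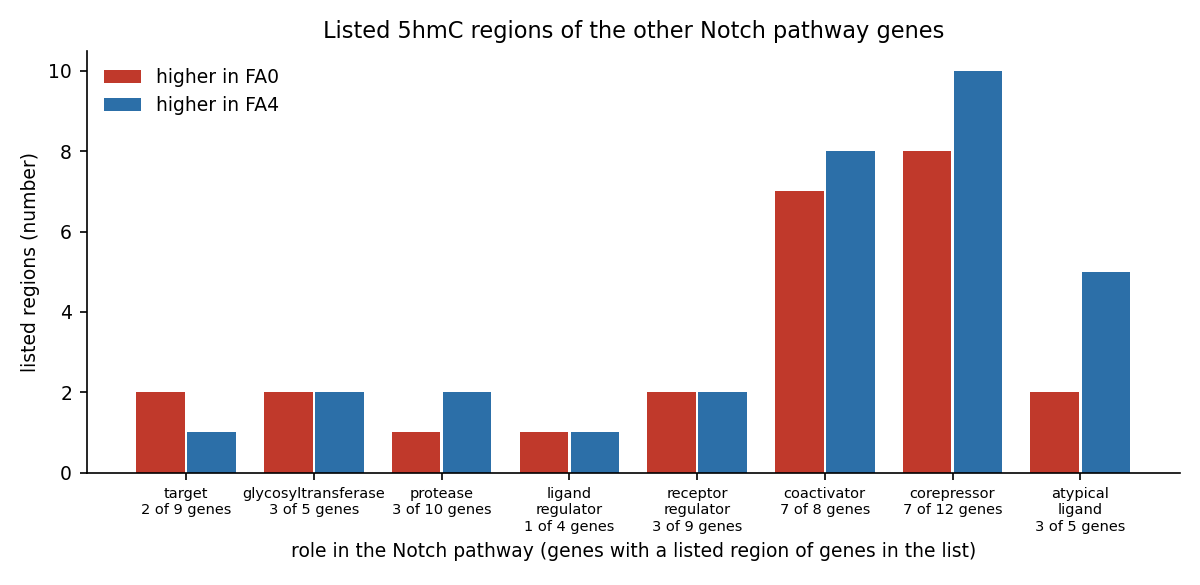
Listed regions of the other Notch pathway genes by role, higher in FA0 (red) or higher in FA4 (blue), with the number of genes with a region of the genes in each role under the axis. Both directions occur in all 8 roles, and coactivators and corepressors hold 33 of the 56 regions.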

How the data were processed

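hMeDIP-seq, which enriches sheared DNA with an antibody against 5hmC, was run on 1 FA0 and 1 FA4 immunoprecipitate. The FA0 input was not analysed here. Per the submitters' notes, the tools included cutadapt (version 1.9.1) and Bowtie2 (version 2.2.4), with mm10 as the build, UCSC's name for GRCm38. Which program called the regions is not given in the sources used here. Kits and fragment sizes stated in the labels differ from those in the study's methods.

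Of 4 region tables, the 2 for the whole genome were used. The promoter tables were not used: their 1067 pairs of region and symbol were all among the whole-genome rows. The deposited normalized count per library is a signal that the authors scaled, by a constant for each. The deposited values were whole multiples of 1.15 in FA0 and 0.866 in FA4 (tolerance 0.02 reads), so reads were recovered by division. They summed to 144823 reads in FA0 and 239268 in FA4 over the listed regions, which is not the library depth. The deposited p-value and FDR were used only to read how regions had been listed, to choose named genes and as filters. The fold columns of the authors' comparison and 8 columns of per-sample averages were not used. Region length came from the deposited coordinates.

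Reads were compared with a two-sided exact binomial test at the authors' scaling. Intervals were exact at the 95% level (Python 3.11.15, scipy 1.17.1). The script was tested on simulated data. Gene positions and promoter sequences came from RefSeq GRCm38.p6. Start sites of the 4 genes with a listed region differed from the deposited ones by at most 8 bp. No genome sequence was used, so the sequence of the regions is not shown. All 16 regions of the 10 genes are described. In the wider pathway, promoter regions and the region with the smallest deposited p in each role and direction are named. The genes, lists and rules were chosen with earlier results of these data known.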

Additional observations from a re-analysis of the deposited data

How the results depend on the processing

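Both libraries were single, so no replicate could be left out, and no paired analysis was possible because there was 1 immunoprecipitated library per condition. The 37.5% FA0-higher share of the Notch regions turned to 55.6% among those passing the exact test. With 20 or more normalized counts it was 100% (3 FA0-higher and 0 FA4-higher regions, interval 29.2 to 100). Without intergenic regions, or within 50 kb of a start site, it was 57.1% (4 and 3 regions each time, interval 18.4 to 90.1). The FA0-higher regions left by these count, class and distance settings were all of Notch2. The share was 23.1% with unscaled reads and 25% counted as genes. Over the whole list the settings gave 64.4% (exact test), 72.1% (20 counts), 46.8% (no intergenic), 47.4% (50 kb), 41.1% (p up to 1e-05) and 18.3% (unscaled). For the wider pathway 44.6% turned to 72.0% (exact test), 61.1% (p up to 1e-05), 75.0% (20 counts) and 53.3% (50 kb), and moved to 29.5% with reads left unscaled. The 9 Notch regions passing the exact test became 2 (p up to 1e-05), 16 (deposited FDR up to 0.05 in its place), 3 (20 counts, or counted as genes), and 5 (no intergenic, or 50 kb). The FDR setting could remove no region, since the largest deposited FDR in the list was 0.0418. With FA0 values raised by 25% the passing regions were 6 FA0-higher and 0 FA4-higher, and with FA4 values raised by 25%, or unscaled, 2 and 5. The Notch2 region at 12.9 kb left the list in both of these settings, and those at 13.1 kb upstream and 59.1 kb also left it with unscaled reads. The scaling of 2 libraries therefore moves which regions pass.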

Other observations

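Listed regions of opposite direction could lie close together. In an intron of Maml3 the FA0-higher region with 15 FA0 reads and 0 FA4 reads was 840 bp from an FA4-higher region with 0 FA0 reads and 17 FA4 reads (exact binomial p = 8.70e-05). Upstream of Ep300, a histone acetyltransferase of the Notch complex, a region with 23 FA0 reads and 5 FA4 reads lay 1860 bp from one with 4 FA0 reads and 30 FA4 reads. Over the whole list 342 neighbouring pairs were at most 1000 bp apart. Of these, 60 were both FA0-higher, 185 both FA4-higher and 97 (28.4%) opposite, so most shared a direction. No pair this close, of either kind, fell within the receptors and ligands. These pairs were looked for after the values had been seen.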
